A study of Drosophila melanogaster with 12 samples.

Results

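Eye-antennal imaginal discs of Drosophila melanogaster were dissected at 72 h after egg laying, in 1 library together with the cuticular mouthparts and in the other labelled as disc only, and the comparison asks which transcripts differ with mouthparts. Markers of ring gland and muscle were present in both libraries. Both are of polyadenylated RNA from larvae of the strain w[11-18] aged to within 1 h. Of 10893 genes in the deposited table, 7718 were compared, namely those with at least 5 FPKM (fragments per transcript length and per mapped fragments) in the higher of the 2 libraries. Of the rest, 2867 stayed below 5 FPKM in both, and 308 above it were small RNAs left out by symbol (snoRNA, sncRNA and mir). The genes nearest the minimum were CG14102, kept with 5.003 FPKM without mouthparts, and CG30460, left out with 4.998 FPKM with them.

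All 12 libraries of the series came from the same strain. Besides this pair it holds whole larvae at 72, 96 and 120 h, whole discs at 96 and 120 h and at the white prepupal stage (WPP), and the eye and the antenna part on their own at 96 and 120 h. Every group held 1 library, so no difference below has a replicate check and none carries a p-value or an error. What else stayed on the mouthparts, or how many animals made a library, is not given in the sources used here. Since these are bulk samples, fewer cells of a type and less RNA per cell cannot be told apart.

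The larval mouthparts are the hooks and pharyngeal skeleton with which the animal feeds. They are hardened cuticle, a layered extracellular matrix of chitin fibres and cuticle proteins that an epithelium secretes and that is cross-linked and darkened by dopamine derivatives. Muscles attach to this skeleton, sense organs and nerves serve it, the salivary duct opens near it, and the eye-antennal discs hang from the pharynx behind it.

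Genes of cuticle were prominent among those higher with mouthparts. Of the 7718 genes, 583 (7.55%) were at least 2-fold higher with mouthparts and 62 (0.803%) at least 2-fold lower, and 172 (2.23%) and 20 (0.259%) passed 4-fold. Differences are given throughout as log2((with + 1)/(without + 1)) in FPKM, which understates the difference of low genes, and 1 on this scale is 2-fold. The median over all genes was -0.09 and the quartiles were -0.26 and 0.18. Small RNAs left out by symbol took 30% of the FPKM with mouthparts and 14.7% without. Levels in the pair are therefore not on a fixed scale, and small shifts of many genes are uncertain. Most of the 583 were also detected in the library without mouthparts: 344 (59%) had at least 5 FPKM there, 201 had 1 to 5 FPKM, and 38 had less than 1. Their median level was 28.8 FPKM with mouthparts and 7.69 without.

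**Figure D1:**
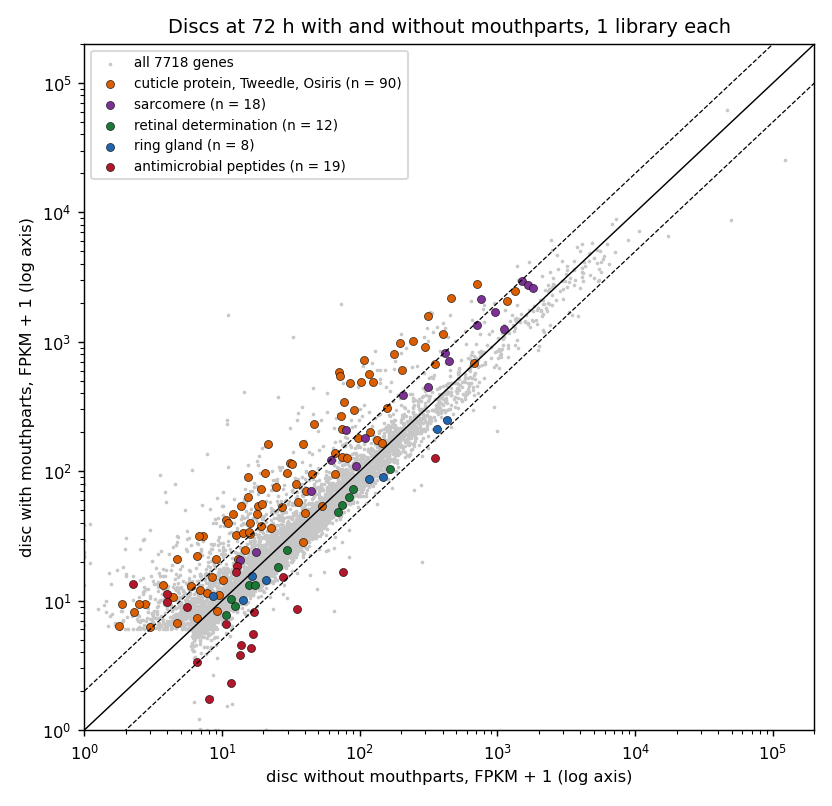
FPKM + 1 of each of 7718 genes in the disc without mouthparts (horizontal, log axis) and with mouthparts (vertical, log axis), with the line of equality and dashed lines at 2-fold. The cuticle protein, Tweedle and Osiris genes lie mostly above the upper dashed line, the sarcomere genes between equality and that line or just past it, and 10 of 19 antimicrobial peptide genes below the lower one.

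Among the structural cuticle genes of the R&R families, whose proteins carry a chitin-binding consensus, 39 of 64 compared were at least 2-fold higher with mouthparts, none was 2-fold lower, and the median difference was 1.33. Cpr5C stood at 583 FPKM with mouthparts and 69.5 without, a log2 difference of 3.05. Cpr49Ag followed at 543 and 70.4 FPKM (2.93), Cpr23B at 160 and 20.6 (2.90) and Cpr56F at 727 and 106 (2.77). All 7 genes of the Ccp84A cluster were higher, by 1.50 to 2.32, with Ccp84Af at 2803 and 705 FPKM. The other end of the list did not differ in this way: Lcp65Af had 689 and 671 FPKM, Cpr49Ac 53.2 and 52.4, and Cpr78E 27.2 and 37.6. Of the 39 higher genes, Cpr65Eb, Lcp2 and Cpr12A reached 5 FPKM with mouthparts only, so the minimum itself favoured their being higher. Genes of the Ccp84A, Lcp65A and Cpr67Fa groups are close copies, so single values within them are uncertain.

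The cuticle genes higher with mouthparts differed in their order from those of the whole larva. The whole larva at 72 h held 22865 FPKM of Lcp3, whereas the disc with mouthparts held 113 and the disc without them 31.0. Cpr5C reversed this order, with 12.4 FPKM in the whole larva, and Cpr23B and Cpr56F had 9.17 and 45.5 there. Of the 39 cuticle genes that were higher with mouthparts, 21 had a higher FPKM in that library than in the whole larva, as did 368 of all 583 higher genes (63.1%) and 5972 of all genes compared (77.4%). Small RNAs took 50% of the FPKM in the larval library and 30% in the mouthparts library, so levels across them are not on a fixed scale.

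The Tweedle genes, a family of secreted cuticle proteins, were 2-fold higher in 13 of 16 cases, with a median of 1.79. TwdlC had 981 FPKM with mouthparts and 194 without (2.33), and TwdlT 231 and 45.4 (2.32). Of the Osiris genes, an insect family active in epithelia that lay down cuticle, 8 of 10 were higher, with a median of 1.88. Osi6 had 88.6 and 14.4 FPKM (2.54), Osi2 95.9 and 19.5 (2.24), and Osi24 was level at 7.33 and 8.17. With a pseudocount of 5 FPKM 5 of the 10 passed. Of the higher genes of these families, Osi18, Osi19, Osi20, TwdlB, TwdlD and TwdlY reached 5 FPKM with mouthparts only. The minimum itself favoured their being higher.

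Enzymes that harden and darken cuticle differed in the same direction, with 6 of 10 at least 2-fold higher and a median of 1.27. The gene ple, for tyrosine hydroxylase, the first step from tyrosine to dopamine, had 78.4 FPKM with mouthparts and 23.5 without (1.69). Ddc, for dopa decarboxylase, had 32.7 and 10.7 (1.53), and Pu, for the cyclohydrolase that makes the cofactor of ple, 68.0 and 31.8 (1.08). The gene e, whose enzyme joins dopamine to beta-alanine for tanning, had 12.4 and 2.36 (1.99), and yellow-d, of the yellow family, 10.6 and 1.67 (2.12). Both e and yellow-d reached 5 FPKM with mouthparts only. The list's median was 0.89 over 16 genes with no minimum, and 3 of 6 passed with a minimum of 20 FPKM.

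Chitin-making genes differed less than the cuticle proteins. Of 20 genes for chitin synthesis and remodelling, 3 were at least 2-fold higher, with a median of 0.35. These were the deacetylase genes Cda5, at 46.0 and 14.6 FPKM (1.59), and serp, at 350 and 173 (1.01), and reb, needed for chitin deposition, at 20.6 and 6.89 (1.45). The chitin synthase gene kkv had 66.6 FPKM with mouthparts and 80.6 without (-0.27). Of 7 genes for other chitin-binding proteins, 5 were higher, including Peritrophin-15a at 131 and 17.6 FPKM (2.83) and obst-E at 149 and 62.8 (1.24). None of 7 transcription factor and related genes of the epidermis passed 2-fold. All 7 were slightly lower (median -0.28, against -0.09 over all genes), among them grh at 39.9 and 46.6 FPKM. In the apical matrix list of ZP-domain proteins, 2 of 8 were higher, zye at 42.8 and 13.5 FPKM and dyl at 13.1 and 4.81, and 1 of them passed with a pseudocount of 5 FPKM.

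**Figure D2:**
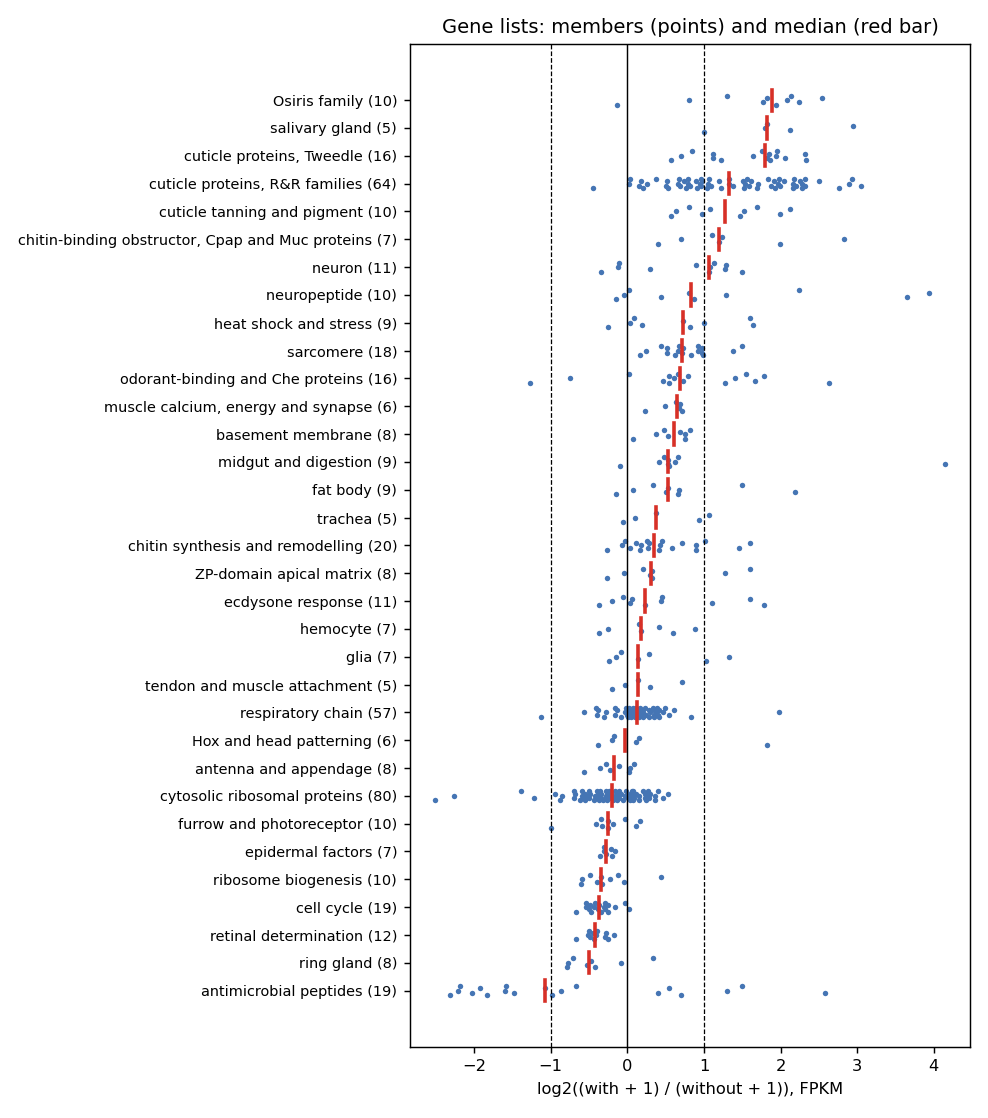
The log2 difference with against without mouthparts of each compared member (points) of the gene lists with at least 5 compared members, with the list's median as a red bar, the number of members in parentheses and dashed lines at 2-fold. Osiris, salivary gland and Tweedle genes have the highest medians of the members that reached 5 FPKM, at 1.88, 1.82 and 1.79, and ring gland and antimicrobial peptide genes the lowest, at -0.50 and -1.08.

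Muscle transcripts were abundant in both libraries and differed modestly. All 18 compared sarcomere genes had higher values with mouthparts, with a median of 0.72, but only Mlc2 and TpnC73F passed 2-fold. Mlc2, a myosin light chain gene, had 2136 FPKM with mouthparts and 754 without (1.50), and TpnC73F, a troponin C gene, 206 and 78.7 (1.38). Mlc1 had 2933 and 1493 FPKM (0.97), Act57B, a larval muscle actin gene with close copies, 2728 and 1668 (0.71), and Tm1, tropomyosin, 1254 and 1119 (0.16). With median-ratio scaling of the libraries 7 of the 18 passed. The summed level of the list was 17757 FPKM with mouthparts, 10288 without and 35725 in the whole larva. These counts and sums cover 18 of 21 names on the list, since Mhc, wupA and Zasp52 were not matched by symbol.

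Other muscle genes went the same way without passing 2-fold. All 6 compared genes for muscle calcium handling, energy supply and the synaptic receptor were higher by 0.24 to 0.71, for instance the calcium pump gene SERCA at 548 and 344 FPKM. Mef2, the myogenic transcription factor, had 18.8 and 13.3 FPKM. Genes of tendon cells and muscle attachment had a median of 0.13, and Tsp, the thrombospondin of tendons, was their highest at 34.2 and 20.4 FPKM (0.71). All 8 basement membrane genes were above 0, with Col4a1 at 85.0 and 49.9 FPKM (0.76). Act79B, an actin gene of adult muscle, had 24.8 and 18.0 FPKM, and TpnC4 and TpnC41C stayed under 2 FPKM in both.

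Of 11 measured genes of the larval salivary gland, 5 reached 5 FPKM and all 5 were at least 2-fold higher, with a median of 1.82. Over all 11, with no minimum, the median was 0.48. Of the 5, ng1, ng2, ng3 and Pig1 are neighbours in the genome, and fkh passed the minimum through the mouthparts library alone. The new glue genes, which encode small secreted proteins of the gland, had 150 FPKM with mouthparts and 18.6 without for ng2 (2.95), 99.7 and 22.2 for ng1 (2.12), and 96.5 and 47.6 for ng3 (1.01). Pig1, a neighbour of the same cluster, had 86.4 and 24.2 FPKM (1.79), and fkh, a forkhead factor of salivary gland and gut, 9.55 and 1.98 (1.82). The gland-specific factor gene sage had 1.43 and 0.746 FPKM, below the minimum, and the late glue genes Sgs3, Sgs4, Sgs5, Sgs7 and Sgs8 stayed under 1 FPKM in both.

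Neuroendocrine transcripts of the brain were among the largest differences. Ilp5 and Ilp2 encode insulin-like peptides made by the insulin-producing cells of the larval brain. Ilp5 had 29.6 FPKM with mouthparts and 1.00 without (3.93), and Ilp2 had 24.0 and 0.988 (3.65). In the disc libraries from 96 h on, Ilp5 did not exceed 0.525 FPKM and Ilp2 reached 4.22 at the WPP stage only. Of 10 neuropeptide genes compared 4 were at least 2-fold higher, the others being Ms, for myosuppressin, at 11.7 and 1.70 FPKM (2.24) and Nplp4 at 4125 and 1685 (1.29). Ilp5, Ilp2 and Ms reached 5 FPKM with mouthparts only, so the minimum itself favoured their being higher. Below the minimum in both, NPF had 4.93 and 0.0887 FPKM, Crz, for corazonin, 4.99 and 0.582, and Eh, for eclosion hormone, 3.47 and 0.835. The number of neuropeptide genes past 2-fold was 7 of 13 under either scaling and 11 of 22 with no minimum.

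Genes of differentiated neurons were higher for 6 of 11 compared, with a median of 1.06. They included the synaptic vesicle genes nSyb, at 19.4 and 7.36 FPKM (1.29), cpx, at 22.3 and 7.25 (1.50), and Rab3, at 6.99 and 2.83 (1.06), and Gad1, for the enzyme that makes GABA, at 5.54 and 1.71 (1.27). The general neuronal gene elav had 18.3 and 14.7 FPKM (0.30). With a pseudocount of 5 FPKM, 1 of these genes passed 2-fold. Of the 6 higher neuronal genes, Rab3, Gad1 and fne reached 5 FPKM with mouthparts only. Over 21 neuronal genes, with no minimum, the median was 0.90. Of 7 glial genes 2 passed, the glutamate transporter gene Eaat1 at 5.05 and 1.41 FPKM and the glutamine synthetase gene Gs2 at 88.9 and 43.1, while the glial factor gene repo had 4.81 and 3.21. With a pseudocount of 5 FPKM 0 of the 7 glial genes passed. The part of attached brain or nerve tissue in these differences was not tested.

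Genes named for sensory proteins split by kind. They were listed by name, and whether their transcripts came from sense organs was not tested. Of 16 odorant-binding protein genes compared, 6 were at least 2-fold higher and 1 lower, with a median of 0.69. Obp44a had 650 FPKM with mouthparts and 104 without (2.63), Obp56d 633 and 239 (1.40), and Obp56e 145 and 49.2 (1.54). Obp56a was the most abundant, at 4690 and 2702 FPKM (0.80), and Obp28a was the lower one, at 54.4 and 132.5 (-1.27). The receptors themselves were scarcely detected: 3 of 34 genes for odorant, gustatory and ionotropic receptors and ppk channels reached 5 FPKM, none passed 2-fold, and 23 were under 1 FPKM in both libraries. The mechanosensory channel gene nompC had 0.539 and 1.12 FPKM.

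Markers of other larval organs were mixed. Of 9 fat body genes 2 passed, the larval serum protein genes Lsp2 at 24.3 and 4.52 FPKM (2.19) and Lsp1alpha at 57.8 and 19.9 (1.50), and the list's median was 0.53. Of 9 digestive genes compared 1 passed: Jon25Biii, a midgut protease gene, at 18.6 and 0.110 FPKM (4.14), with 4046 in the whole larva. With no minimum 5 of 22 digestive genes were higher and 1 lower. The close relatives Jon25Bi and Jon25Bii had 29.4 and 18.3 and 18.0 and 11.3 FPKM. No gene of 7 from hemocytes passed; Hml had 18.1 and 11.7 FPKM. Of 5 tracheal genes emp passed at 53.4 and 25.1 FPKM, and the tracheal factor gene trh was at 0.558 and 0.320. The tracheal count was 0 with a pseudocount of 5 FPKM and 2 under either scaling.

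Most genes of the disc itself were slightly lower in the library with mouthparts, as were most of all 7718 genes. The median over all genes was -0.09 and the lower quartile -0.26. Beside these, the list medians were -0.42 for retinal determination, -0.25 for furrow and photoreceptors and -0.17 for antenna and appendages. All 12 retinal determination genes, the factors that commit cells to eye fate, were below 0 with a range from -0.68 to -0.18 and none at 2-fold. The Pax6 gene ey had 47.7 FPKM with mouthparts and 68.3 without, its partner toy 102 and 164, and the phosphatase and cofactor gene eya 72.4 and 87.8. Their summed level with mouthparts was 0.721 of that without. Of 8 genes of antenna and appendages 5 were below 0 and 3 above: Dll had 24.4 and 28.9 FPKM, hth 123 and 158, and ct 7.65 and 7.41. Of 10 genes of the furrow and photoreceptors 8 were below 0, none passed 2-fold, and ro, the lowest, had 3.57 and 8.09 FPKM (-0.99).

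Genes of proliferation also had mostly negative differences, where the median over all genes was -0.09. Of 19 cell cycle genes 18 were below 0, with a median of -0.37 and none at 2-fold, including stg, the Cdc25 phosphatase gene that starts mitosis, at 103 and 151 FPKM and PCNA, the replication clamp, at 359 and 486. Of 10 genes for ribosome assembly 9 were below 0, with Myc at 81.0 and 103 FPKM. Scaling the libraries to a median ratio of 1, or to equal sums over transcripts of at least 300 nt, moves the median of all genes by 0.10 and 0.14 towards higher values with mouthparts. The median differences of the retinal determination, cell cycle and ribosome assembly lists stay below 0 under both.

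Ring gland genes were also mostly lower with mouthparts, where the median over all genes was -0.09. The ring gland is the endocrine organ near the brain that makes ecdysone, juvenile hormone and adipokinetic hormone, and 7 of 8 genes compared were below 0, with a median of -0.50 and none at 2-fold. Akh, of the corpora cardiaca, had 247 FPKM with mouthparts and 427 without (-0.78), spok, a gene of ecdysone synthesis, 213 and 365 (-0.78), and jhamt, which makes juvenile hormone, 89.2 and 146 (-0.71). In the whole larva these had 6.10 (Akh) and 3.37 (spok) FPKM, so that both disc preparations held ring gland transcripts at levels far above the animal as a whole.

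Antimicrobial peptide genes had more lower members than any other list examined. Of 19 compared, 10 were at least 2-fold lower with mouthparts and 3 higher, with a median of -1.08, against 0.803% lower among all genes. Mtk, for metchnikowin, had 125 FPKM with mouthparts and 349.6 without (-1.48), and DptB, for a diptericin, 7.63 and 34.3 (-2.03). The bomanin genes BomS1, BomS2, BomS3 and BomS5 were lower by 1.08 to 2.31, BomS3 being the highest of them at 15.5 and 74.3 FPKM. AttA, AttB, DptA and edin were lower too. The cecropin genes went the other way, with CecC at 10.2 and 2.98 FPKM and CecB at 8.81 and 2.995, as did BomS6 at 12.6 and 1.27. With a pseudocount of 5 FPKM 1 of these 3 passed. The minimum favoured some members in each direction. AttA, BomS1, BomS2 and edin reached 5 FPKM without mouthparts only, and CecB, CecC and BomS6 with them only. With a minimum of 20 FPKM 4 genes were left, of which 3 were lower. All 19 have short transcripts, none reaching 1000 nt, and several have close copies, so single values are uncertain. With either scaling the median of the list was just above -1, at -0.99 and -0.96.

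**Figure D3:**
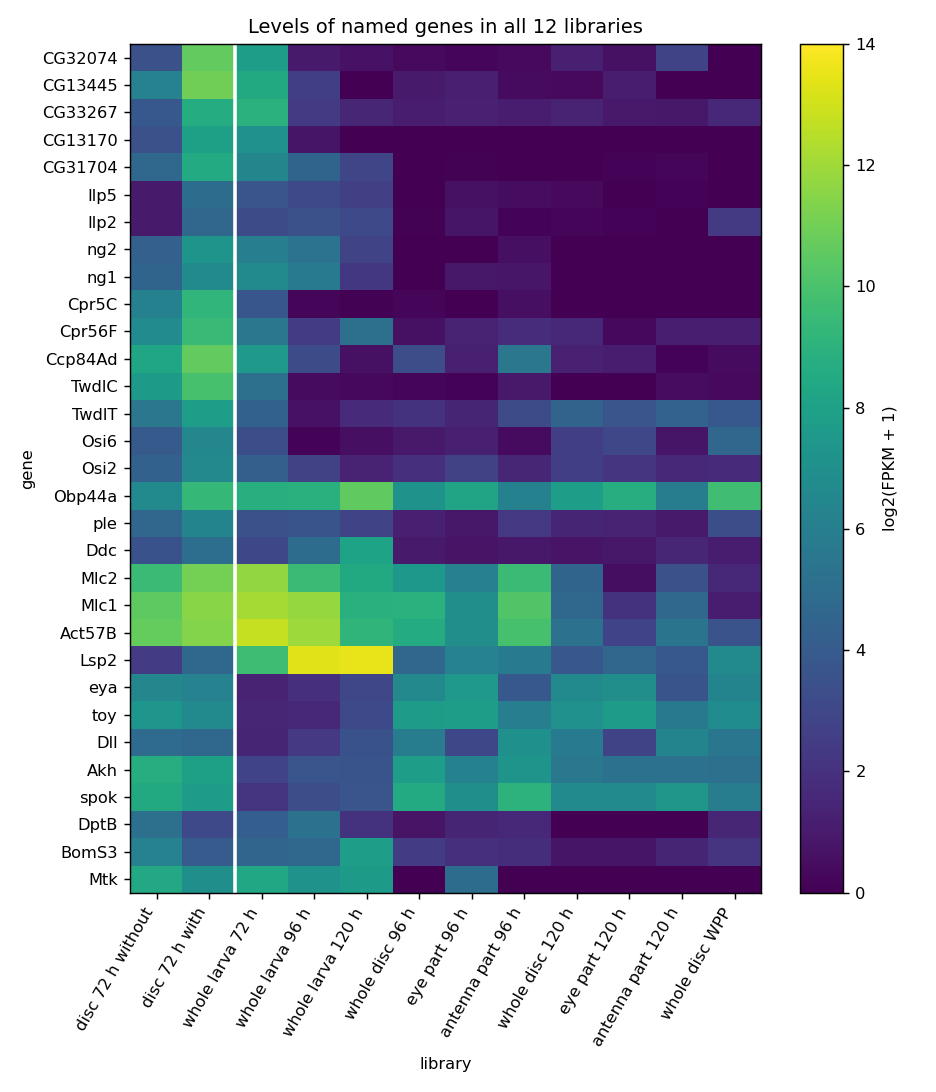
Levels as log2(FPKM + 1) of 31 genes named in the text in all 12 libraries, with the pair compared at the left of the white line. The unnamed genes at the top and the cuticle genes are bright in the mouthparts library and mostly dark in the disc libraries from 96 h on. Exceptions include Ccp84Ad in the antenna part at 96 h, TwdlT in the disc at 120 h and Osi6 at the WPP stage. The genes eya, toy and spok are bright in the discs and dark in the whole larvae.

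The genes with the largest differences were mostly unnamed. Among genes with a transcript of at least 300 nt, CG32074 led, at 1610 FPKM with mouthparts and 10.1 without (7.19), with 218 in the whole larva at 72 h and 0.99 at 96 h. CG42662 had 38.5 and 0.104 FPKM (5.16), CG33267 406 and 13.4 (4.82), and CG13445 1971 and 72.4 (4.75). Further unnamed genes of this kind were CG13170, CG14143, CG31704 and CG5402, with differences of 4.50, 4.41, 3.89 and 3.88. CG13170 and CG14143 were listed at 0 in all 7 disc libraries from 96 h on. CG43221 had 101 and 5.10 FPKM, but it overlaps CG43645 on the same strand, which had 0 and 8.33, so the values of this pair are uncertain. CG32074 overlaps NaPi-III on the other strand, and whether the counting used strand is not known here. Symbols starting CG or CR, which denote genes without a name, made up 322 (55.2%) of the 583 and 31.4% of all genes compared.

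By absolute amount, among transcripts of at least 300 nt, the largest gain was that of CG13545, from 2425 FPKM without mouthparts to 6065 with them (1.32), before CG13059, at 2494 and 5090 (1.03), CG11131, at 1382 and 3836 (1.47), and Nplp4. The largest shortfalls among these transcripts were in ribosomal protein genes of short transcripts: RpL41 had 25583 FPKM with mouthparts and 122508 without (-2.26), and RpL29 6596 and 17240 (-1.39). Of 80 cytosolic ribosomal protein genes 4 were at least 2-fold lower, the others being RpL39 and RpS14b, and the median was -0.20. With transcripts of at least 1000 nt 0 of 29 ribosomal protein genes passed.

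Short transcripts differed far more often than long ones. Under 300 nt, 54% of 50 genes were at least 2-fold higher and 18% lower, whereas at 4000 nt and over 1.82% of 1262 were higher and 0.0792% lower. Among them are scaRNA and snRNA genes, which are short RNAs without a poly(A) tail: 25 of these were compared, 17 being higher and 4 lower. Among transcripts of at least 1000 nt, 305 of 5927 were higher (5.15%) and 12 were lower (0.202%). For scale, the whole disc at 96 h and at 120 h was set against the range of the eye and antenna part libraries of that age. Lying 2-fold outside a range is harder to meet than a 2-fold difference between 2 libraries. These shares therefore understate the spread between single libraries and are not a like measure for the pair. At 96 h, 1.76% of 7329 genes lay at least 2-fold outside the range of the parts, 0.609% of those with at least 1000 nt and 59% of 39 genes under 300 nt. At 120 h the same shares were 1.58%, 0.573% and 57.1%.

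**Figure D4:**
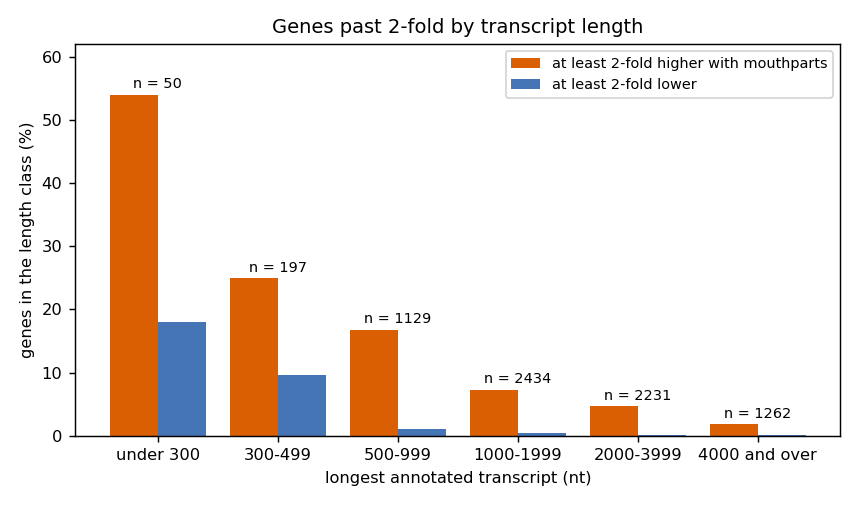
Percentage of genes at least 2-fold higher (orange) or lower (blue) with mouthparts in each class of longest annotated transcript, with the number of genes compared above the bars. The share of higher genes falls from 54% under 300 nt to 1.82% at 4000 nt and over.

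In libraries outside the pair, the genes gained with mouthparts were seen more in the whole larva than in the later discs. Of the 583, 435 had at least 5 FPKM in the whole larva at 72 h (74.6%, against 77.9% of all genes compared) and 153 reached it in the 96 h whole disc (26.2%, with 87.8% for all). These 2 libraries differ in age as well as tissue. The share was also lower in older larvae: 310 reached it in the whole larva at 96 h (53.2%, with 77.4% for all) and 333 at 120 h (57.1%, with 87.8%). In 169 of the 583 (29%) all 3 disc libraries at 96 h were under 1 FPKM, compared with 3.36% of all genes. The authors' deposited table places 316 of the 583 (54.2%) in its cluster 6, which holds 15% of the genes compared. The clusters are from the same study, and how they were formed is not known here.

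**Figure D5:**
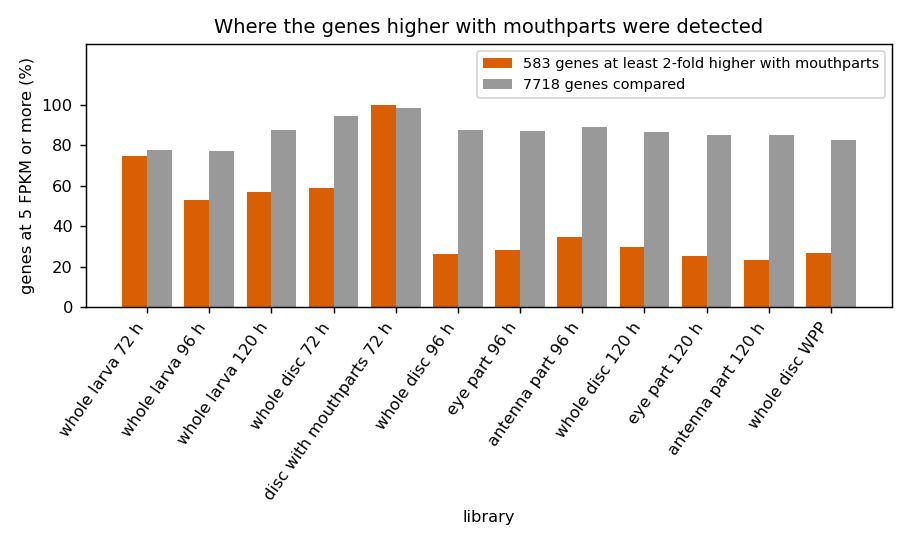
Percentage of the 583 genes that were at least 2-fold higher with mouthparts (orange) and of all 7718 genes (grey) that reached 5 FPKM in each library. The orange bars stand at 74.6%, 53.2% and 57.1% in the whole larva at 72, 96 and 120 h. In the disc libraries from 96 h on they stand between 23.3% and 34.6%.

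Where these genes were still detected at 96 h, more were higher in the antenna part than in the eye part. Of the 583, 234 had at least 5 FPKM in the eye or antenna part at 96 h, and 106 of these (45.3%) were at least 2-fold higher in the antenna part, against 6.57% of all 7277 genes in that pair, while 40 (17.1%) were 2-fold lower, against 4.53%. At 120 h the antenna part was 2-fold higher for 54 of 181 (29.8%, against 4.11%) and lower for 57 (31.5%, against 6.4%). Of the members that reached 5 FPKM in either part at 96 h, 16 of 18 sarcomere genes and 21 of 34 R&R cuticle genes were 2-fold higher in the antenna part. Of these 18 sarcomere genes, 2 were among the 583. Mlc1, for instance, had 1181 FPKM in the antenna part and 120.0 in the eye part, and Ccp84Ad, with 1574 and 314 FPKM in the pair with and without mouthparts, had 45.8 and 1.33. Other lists went the other way. In the antenna part 4 of 7 neuronal, 5 of 6 digestive and 2 of 2 Osiris genes were 2-fold lower, and 5 of the 34 R&R genes were too. These parts share no library with the pair compared here.

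Many of the genes higher with mouthparts were neighbours in the genome. Ordered along the chromosome arms of the reference annotation, 238 of 571 placed genes (41.7%) had a neighbour among the compared genes that was also at least 2-fold higher, against 14.3% of all compared genes. There were 17 runs of at least 4 such neighbours, with 74 genes. The longest was a run of 6 on the X chromosome, CG14265, ng2, ng3, ng1, ng4 and Pig1, with differences from 1.01 to 4.14. Others were 5 genes of the Ccp84A cluster, 5 Osiris genes from Osi14 to Osi20, and Cpr65Ea, Cpr65Eb and Cpr65Ec beside Mp. Several runs held unnamed genes only, such as CG13066, CG13049, CG13048 and CG13047.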

How the data were processed

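The authors deposited 1 table of 10893 FlyBase identifiers with 1 value per library. Per the submitters' processing notes TopHat, Cufflinks and dm3 were used (no versions). No header names the unit, and the values were read as FPKM made by the authors with Cufflinks: they are not whole and summed to 1398687 with mouthparts and 1275302 without. Depth in reads is unknown and no interval could be set. The sources used here do not give the annotation, the strand setting or how the clusters were made. Per the labels' protocols, fragments of about 300 bp were size-selected.

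Symbols, transcript lengths and gene order came from BDGP6.54, with a symbol for 10308 identifiers (94.6%). No coordinates are printed because the builds differ. With 1 library a group there was no test. The rule was a log2 difference of at least 1 with a pseudocount of 1 FPKM and at least 5 FPKM in the higher library, in Python 3.11.15 with pandas 2.3.3, tested on simulated data. The gene Cpr (a P450 reductase) was removed from the cuticle list. Named genes were the 15 largest differences per direction with a transcript of at least 300 nt, up to 4 per list, the 5 largest FPKM differences per direction, and partners; others were chosen after their values were seen. Genes, lists and rules were chosen with earlier results of these data known.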

Additional observations from a re-analysis of the deposited data

How the results depend on the processing

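No paired analysis was possible because each group held 1 library and the labels give no shared replicate numbers, and for the same reason no library could be left out. The number of genes at least 2-fold higher with mouthparts was 583 and ran from 390 to 749 under pseudocounts of 0.1 and 5 FPKM, minima of 1 and 0 FPKM and both scalings. It was 348 with a minimum of 20 FPKM and 305 with transcripts of at least 1000 nt only, which test fewer genes. The number lower was 62, and became 100 with a minimum of 1 FPKM or none, 40 with a minimum of 20 FPKM and 12 with transcripts of at least 1000 nt. Both scalings shift the differences upwards, so all 583 genes had to pass again, and the higher genes came to 660 and 687. The lower genes came to 53 and 49. Of 1237 values of named genes under the alternatives, 1215 kept their side of 2-fold, 12 fell short of it and 10 passed it. A minimum or a length limit leaves a gene's value unchanged, and a pseudocount cannot change its sign. The scalings shift values by far less than 2-fold. The 0 changes of sign among genes past 2-fold, and many of the 1215, were therefore fixed in advance. The median of the antimicrobial peptide list was -0.80 with a pseudocount of 5 FPKM. The R&R cuticle list had a median of 0.96 with transcripts of at least 1000 nt, with 8 members higher. Short transcripts and levels near 5 FPKM limit what single values show.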

Other observations

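Every symbol stem shared by at least 5 compared genes was scanned, 97 stems in all, a scan made after the values had been seen. In 71 stems no gene was at least 2-fold higher with mouthparts. The stem Jhbp, of genes named for juvenile hormone binding proteins, had all 8 of its genes higher, by 1.09 to 1.85. Of these, Jhbp2, Jhbp4 and Jhbp16 reached 5 FPKM with mouthparts only, so the minimum itself favoured their being higher. Jhbp1 had 134 FPKM with mouthparts and 44.1 without, Jhbp12 85.3 and 23.3, and Jhbp7 74.6 and 32.4. Among 6 Acbp genes, which encode acyl-CoA binding proteins, 3 were higher, and Acbp3 had 16.3 and 0.717 FPKM with 3457 in the whole larva. The carbonic anhydrase genes CAH1 and CAH2 had 24.2 and 7.48 and 59.9 and 13.5 FPKM, while CAH3 had 39.2 and 47.4.

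Of 11 ecdysone response genes 3 were at least 2-fold higher with mouthparts, with a list median of 0.23: ImpL1 at 23.2 and 6.01 FPKM, MsrA at 74.2 and 23.8, and ImpE2 at 13.2 and 5.59. The receptor gene EcR had 40.1 and 38.9 FPKM. Of 9 stress genes 3 were higher, with Hsp22 at 26.2 and 7.71 FPKM and Hsp68 at 64.0 and 20.5, while Hsp83 had 748 and 892. Of 57 nuclear-encoded respiratory chain genes 1 was higher and 1 lower, with a median of 0.12. Among the Hox genes, all under 5 FPKM in both libraries, Dfd had 4.09 and 2.73 FPKM, Scr 1.24 and 0.717, pb 0.321 and 0.207, and lab 2.47 and 2.66.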
